A study of Mus musculus with 8 samples.

Results

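The sulfotransferases (Sult genes) and the UDP-glucuronosyltransferases (Ugt genes) were examined in the livers of NASH diet–fed mice. Members were all annotated genes whose symbol begins with Sult or Ugt followed by a number, without pseudogenes, which gave 21 Sult and 22 Ugt genes, or 43 of the 46517 genes in the table. RNA from whole liver was sequenced in 4 male MøFoxO1-KO mice (replicates 26 to 29) and 4 male WT littermates (replicates 22 to 25) on the C57BL/6 background. Both groups carried the floxed FoxO1 alleles (FoxO1 loxP/loxP). MøFoxO1-KO mice also carried Lyz2-Cre, in which the promoter of the myeloid gene lysozyme 2 drives Cre, so that hepatocytes were not the targeted cells. All mice ate the NASH-inducing diet for 25 weeks from 6 weeks of age, were 31 weeks old and had fasted for 16 h. Each count column is a separate mouse.

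Sulfotransferases transfer a sulfonate group from the donor PAPS to steroids, bile acids, phenols and catecholamines, and UDP-glucuronosyltransferases transfer glucuronic acid from UDP-glucuronic acid to bilirubin, steroids and drugs. Both reactions make their substrates more soluble in water, and transporters then carry the conjugates out of the hepatocyte into bile or blood. The liver is the main site of both reactions, several of these genes differ between male and female mouse liver, and much of their transcription follows nuclear receptors.

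Most Ugt1a genes cannot be read like separate genes, so their structure is shown before the values. The 9 Ugt1a genes lie on chromosome 1 of GRCm38, plus strand, between 88055388 and 88220002. Each has its own first exon, spliced to common later exons that begin with the exon at 88215044 to 88215175. In GENCODE M21 all 9 share the same 735 coding bases after the first exon. The lines show the last 30 coding bases of the first exon in lower case and the first 30 bases of the common exon in capitals, for Ugt1a9 and its closest copy and for other genes of the locus with counts.
Ugt1a9: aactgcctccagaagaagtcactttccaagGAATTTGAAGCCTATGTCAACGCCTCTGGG
Ugt1a10: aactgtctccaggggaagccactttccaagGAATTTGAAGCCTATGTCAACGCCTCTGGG
Ugt1a6a: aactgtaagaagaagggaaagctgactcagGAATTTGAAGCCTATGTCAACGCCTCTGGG
Ugt1a5: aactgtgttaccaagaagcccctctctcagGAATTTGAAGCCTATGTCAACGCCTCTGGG
Ugt1a1: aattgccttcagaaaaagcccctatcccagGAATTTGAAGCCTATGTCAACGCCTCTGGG
The capitals are the same in every line, whereas the lower-case parts differ between Ugt1a9, Ugt1a6a and Ugt1a1. Over the coding part of the first exon, Ugt1a9 was 91.9% identical to Ugt1a10 and Ugt1a6a was 97.0% identical to Ugt1a6b. Ugt1a1 was at most 68.2% identical to another member of the locus. Only 17.3% of the exon bases of Ugt1a1, 40.1% of those of Ugt1a9 and at most 49.7% of those of any Ugt1a gene belonged to no other gene. The first exon of Ugt1a1 also overlaps the antisense gene Gm20528, which had 0 counts in all mice. Ugt1a8 shares the later exons but had 0 to 2 counts per mouse, where Ugt1a1 had 481 to 1325. Reads in the common exons were therefore not credited to every Ugt1a gene, and each Ugt1a count is read here as coming mainly from its own first exon.

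Because each Ugt1a gene starts at its own promoter, the 250 bases before the RefSeq start of Ugt1a9 and Ugt1a1 are given, together with those of Ugt2b38, the Ugt gene with the largest positive log2 fold change. These 3 were chosen after the values were seen. All are written 5′ to 3′ on the strand of the gene, from RefSeq on GRCm38.p6, at chr1:88070529-88070778 and chr1:88211709-88211958 on the plus strand and chr5:87424204-87424453 on the minus strand. Capitals mark matches to the motifs searched.
Ugt1a9: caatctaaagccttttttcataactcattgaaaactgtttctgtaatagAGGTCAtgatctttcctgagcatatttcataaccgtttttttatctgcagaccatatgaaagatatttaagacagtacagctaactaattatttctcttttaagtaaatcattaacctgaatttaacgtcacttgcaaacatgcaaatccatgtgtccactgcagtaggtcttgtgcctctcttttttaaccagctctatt
Ugt1a1: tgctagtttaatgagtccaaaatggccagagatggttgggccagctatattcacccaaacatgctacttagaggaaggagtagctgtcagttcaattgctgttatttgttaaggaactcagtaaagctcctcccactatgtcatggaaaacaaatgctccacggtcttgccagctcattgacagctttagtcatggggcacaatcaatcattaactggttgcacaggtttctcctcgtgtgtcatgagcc
Ugt2b38: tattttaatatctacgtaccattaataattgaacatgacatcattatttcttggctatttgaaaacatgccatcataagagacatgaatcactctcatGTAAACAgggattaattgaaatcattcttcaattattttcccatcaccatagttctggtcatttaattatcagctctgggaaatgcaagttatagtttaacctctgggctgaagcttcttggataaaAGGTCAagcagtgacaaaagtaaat
The motifs were AGGTCA (nuclear receptors), TGTTTAC (FOXO and FOXA) and TTCNNNGAA (STAT5), sought exactly on both strands in windows of 300 bases that end 50 bases after the start. With position 0 as the start, Ugt1a9 had an AGGTCA match beginning at -201. Ugt1a1 had no match to these motifs, which says only that these letters are not in its window. Ugt2b38 had a TGTTTAC match at -152 and an AGGTCA match at -25. The matches in Ugt2b38 did not overlap. AGGTCA was found in 10 of 40 member promoters (37 members have an entry) and in 16.3% of all 32851 promoters in the table, TGTTTAC in 5 of 40 and in 3.65% of all, and TTCNNNGAA in 2 of 40 and in 8.3% of all. A match is a run of letters and not a measured binding site.

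Total counts per mouse were 15253218 to 18025481. Normalized counts are counts scaled to the mean TMM-adjusted library size. Foxo1, the targeted gene, had 303 to 459 normalized counts in WT livers and 290 to 429 in MøFoxO1-KO livers, which overlapped (log2 fold change -0.17 ± 0.18, SE). Foxo1 from hepatocytes and from myeloid cells is pooled in whole liver RNA. WT replicate 23 had the highest value of the 8 mice in 6 of the 15 tested Ugt genes and in 0 of the 8 tested Sult genes. Over the 23 tested members of both families, WT replicate 24 had the lowest value in 9. MøFoxO1-KO replicates 26 and 27 each had the highest value in 5. The same counts over all genes were not made. Hepatocyte markers (Alb, Apoa1, Ttr, Serpina1a, Cps1, Cyp3a11) summed to 64718 to 90590 CPM (TMM-scaled counts per 1e6 counts) in WT and 76861 to 113506 in MøFoxO1-KO livers, with 5 of 6 positive log2 fold changes and 2 at an unadjusted p under 0.05 (edgeR), Apoa1 (1.07) and Serpina1a (0.90), whose groups did not overlap. Macrophage markers (Adgre1, Cd68, Clec4f, Csf1r, Cd5l, Lyz2, Vsig4) summed to 176 to 298 CPM in WT and 187 to 730 in MøFoxO1-KO livers. Of the 7, 6 were positive and 3 (Adgre1, Cd5l and Vsig4) were higher at an unadjusted p under 0.05 (edgeR). Lyz2, whose promoter drives Cre, had a log2 fold change of -0.77. Without MøFoxO1-KO replicate 29, Adgre1 went from 1.03 to 0.72, Cd5l from 1.08 to 0.62 and Vsig4 from 1.08 to 0.51. Over all genes, 48.3% were positive and 8.65% were higher at an unadjusted p under 0.05 (edgeR). Summed markers of stellate, endothelial, bile duct and lymphoid cells and of intestine also overlapped between the groups. Of the 6 stellate markers, Col1a1 (-1.28, without overlap) and Col3a1 (-0.76) were lower at an unadjusted p under 0.05 (edgeR). All 5 bile duct markers had a negative log2 fold change, and all 5 endothelial and all 4 lymphoid markers a positive one. Of these bile duct, endothelial and lymphoid markers, 0 were at an unadjusted p under 0.05 (edgeR). The kidney markers Umod and Slc34a1 had 0 counts. The part of these shifts in the transferase values was not tested. In bulk RNA, fewer cells of a type and less RNA per cell cannot be told apart.

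In the Sult family, Sult2a8 was the main transcript and was higher in every MøFoxO1-KO mouse than in any WT mouse. Sult5a1 averaged 236 normalized counts in MøFoxO1-KO and 55.7 in WT livers, also without overlap. Sult1e1 was high in 2 of 4 MøFoxO1-KO mice. Of the 21 Sult genes, 8 passed the filter on low counts. The quasi-likelihood test of edgeR, adjusted by Benjamini-Hochberg over 13278 genes, placed 0 of these 8 under an adjusted p of 0.05, which 0.294% of all genes passed. At an unadjusted p under 0.05, 3 of 8 were higher in MøFoxO1-KO livers, against 8.65% of all genes, and 0 of 8 were lower, against 8.06% (16.7% in either direction). DESeq2 with Benjamini-Hochberg adjustment called all 3 of them at an adjusted p under 0.05, where it called 4.02% of all genes tested. Groups did not overlap in 2 of 8 Sult genes, both higher, against 5.0% of all genes (9.71% in either direction). Of the 8, 6 had a positive log2 fold change, against 48.3% of all genes. The median log2 fold change of the 8 was 0.33, against -0.01 over all genes, rising to 0.55 if WT replicate 23 was left out and falling to 0.094 if WT replicate 24 was.

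**Figure D1:**
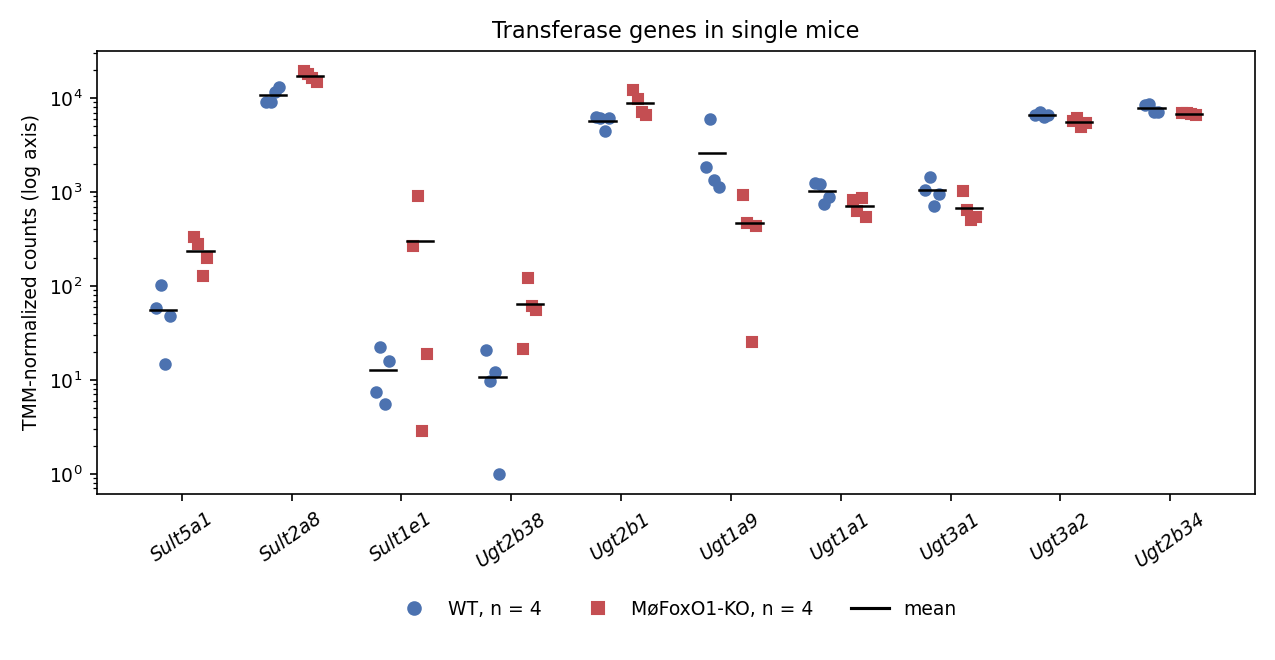
TMM-normalized counts (log axis) of 10 transferase genes in 4 WT mice (circles) and 4 MøFoxO1-KO mice (squares), with the group mean as a line. Sult2a8 lies from 9012 to 13164 in WT and from 14982 to 19455 in MøFoxO1-KO mice, whereas Sult1e1 is split within the MøFoxO1-KO group and Ugt1a9 is spread widely in both groups.

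Sult2a8 encodes a hydroxysteroid sulfotransferase of mouse liver that acts on bile acids (ENSMUSG00000030378, chromosome 7 of GRCm38 from 14410686 to 14446769, minus strand). WT mice 22, 23, 24 and 25 had 9012, 9098, 11564 and 13164 normalized Sult2a8 counts, and MøFoxO1-KO mice 26, 27, 28 and 29 had 19455, 17858, 16346 and 14982. The lowest MøFoxO1-KO mouse was above the highest WT mouse. The means were 10709 ± 2019 (SD, n = 4) and 17160 ± 1929 (SD, n = 4), with an exact two-sided permutation p of 0.0286, the smallest that 4 against 4 mice allow. Every gene whose groups do not overlap gets this p (9.71% of all genes), so here and below it adds nothing to the separation. The log2 fold change was 0.68 ± 0.16 (SE), with an edgeR adjusted p of 0.115, which did not pass, and a DESeq2 adjusted p of 0.00239. Leaving out each mouse in turn kept the log2 fold change between 0.61 and 0.79. Sult2a8 made up 50.9 to 71.1% of all Sult counts in WT mice and 69.6 to 74.7% in MøFoxO1-KO mice. The coding sequence of Sult2a8 was at most 75.7% identical to that of another Sult2a gene.

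Sult5a1 is a sulfotransferase whose substrates are little known (ENSMUSG00000000739, chromosome 8 from 123142847 to 123158315, minus strand). WT mice had 58.1, 102, 14.8 and 47.8 normalized counts in replicate order, and MøFoxO1-KO mice had 332, 282, 129 and 200. The highest WT value (replicate 23) was below the lowest MøFoxO1-KO value (replicate 28). EdgeR gave a log2 fold change of 2.08 ± 0.48 (SE), with an edgeR adjusted p of 0.107, a DESeq2 adjusted p of 0.000744 and an exact permutation p of 0.0286. Without the filter on low counts the edgeR adjusted p was 0.0205, which passed.

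Sult1e1 encodes the oestrogen sulfotransferase (ENSMUSG00000029272, chromosome 5 from 87575969 to 87591594, minus strand). WT mice had 7.49, 22.6, 5.54 and 15.9 normalized counts. MøFoxO1-KO mice 26 and 27 had 266 and 912, whereas mice 28 and 29 had 2.85 and 19.0, inside or below the WT range. The log2 fold change of 4.53 ± 1.35 (SE) rested on those 2 mice. It was 2.90 without replicate 27, the edgeR adjusted p over all mice was 0.164 and the DESeq2 adjusted p was 0.0323. The exact permutation test of the normalized counts gave p = 0.286.

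The other Sult genes that passed the filter showed no such separation. Sult1a1, the main phenol sulfotransferase, had 2535 to 4341 normalized counts in WT and 2218 to 3329 in MøFoxO1-KO mice (log2 fold change -0.35 ± 0.20, SE). Sult1d1, which acts on catecholamines, had 1682 to 3617 and 1829 to 3123 (log2 fold change 0.07). Sult1b1, which acts on thyroid hormones, had 271 to 1115 and 609 to 1190, and its log2 fold change of 0.27 became -0.00057 without WT replicate 24. Sult1c2 had 161 to 230 and 112 to 248, and Sult2a7 had 27.7 to 59.7 and 39.3 to 116. Their log2 fold changes were -0.06 and 0.38, and the groups of all 5 genes overlapped.

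The difference between the groups in summed Sult counts lay in Sult2a8. All Sult genes summed to 1082 ± 196 CPM (SD, n = 4) in WT and 1474 ± 194 in MøFoxO1-KO livers, with WT replicate 25 (1351) above MøFoxO1-KO replicates 28 (1334) and 29 (1292). Without Sult2a8 the sums were 430 ± 132 and 428 ± 83.1 CPM. The 6 Sult1 genes summed to 421 ± 128 and 409 ± 78.6 CPM.

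Between genes, levels were compared as TMM-scaled CPM per kilobase. In WT livers the order was Sult2a8 (median 260.6, range 227 to 332), Sult1a1 (140, 102 to 176), Sult1d1 (61.7, 41.7 to 89.6), Sult1b1 (15.1, 5.95 to 24.4) and Sult1c2 (6.43, 5.30 to 7.61). Of these neighbours only Sult1b1 and Sult1c2 overlapped over the 4 mice. Sult2a7, Sult5a1 and Sult1e1 followed, with medians of 3.60, 1.83 and 0.575, and each overlapped the next. The first 4 places were the same in MøFoxO1-KO livers, where Sult5a1 was in place 5 with a median of 8.33.

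**Figure D2:**
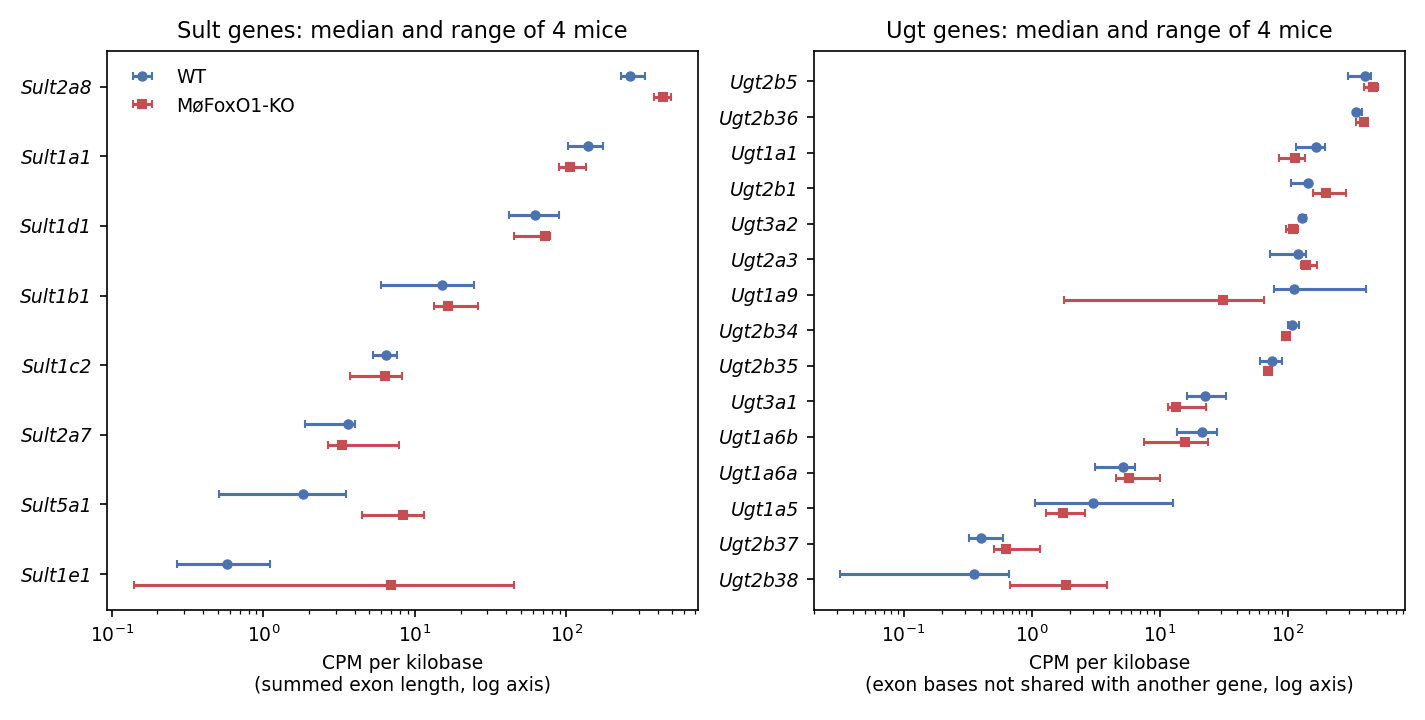
Level per length of the tested Sult genes (left, summed exon length) and Ugt genes (right, exon bases not shared with another gene) as TMM-scaled CPM per kilobase on a log axis; points are medians and bars the range of 4 mice. Sult2a8 leads the Sult genes and Ugt2b5 and Ugt2b36 lead the Ugt genes, and Ugt1a9 spans the widest range in MøFoxO1-KO livers among the Ugt genes shown. Exon bases opposite an antisense gene are left out of the length, which places Ugt1a1 in place 3; with them it is in place 9.

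The remaining 13 Sult genes did not pass the filter. Sult1c1, Sult2a3, Sult3a2 and Sult6b2 had 0 counts in every mouse, which allows up to 3 counts per library for counting error alone. Over all 8 mice Sult2a1 had 6 counts, Sult2a2 had 23, Sult2a4 had 1, Sult2a5 had 7, Sult2a6 had 41, Sult2b1 had 11, Sult3a1 had 37, Sult4a1 had 3 and Sult6b1 had 5. Sult2a1 to Sult2a6 are hydroxysteroid sulfotransferases. In coding sequence, Sult2a1 to Sult2a5 were from 93.5% (Sult2a3 and Sult2a5) to 97.9% (Sult2a1 and Sult2a2) identical to each other. Sult2a6 was at most 89.7% identical to another Sult2a gene. Reads between these genes, mainly Sult2a1 to Sult2a5, may have been lost or split. Of the 78 counts of Sult2a1 to Sult2a6, 73 came from WT replicate 23, 4 from WT replicate 24 and 1 from WT replicate 22, and MøFoxO1-KO mice had 0. Sult3a1 had 7, 14, 1 and 11 counts in WT mice and 4, 0, 0 and 0 in MøFoxO1-KO mice. When no filter was applied, Sult3a1, Sult2a2 and Sult2a6 were lower at an unadjusted p under 0.05 (edgeR). The Sult genes at that limit were then 3 higher and 3 lower.

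In the Ugt family, values lay in both directions. Ugt2b38 and Ugt2b1 were higher in MøFoxO1-KO livers and Ugt1a9, Ugt3a2 and Ugt2b34 were lower, all without overlap between the groups. The most abundant members, Ugt2b5 and Ugt2b36, overlapped. Of the 22 Ugt genes, 15 passed the filter, and 0 of these passed an adjusted p of 0.05 (edgeR, Benjamini-Hochberg), against 0.294% of all genes. DESeq2 called 1, Ugt2b38, against 4.02% of all genes. At an unadjusted p under 0.05 in edgeR, 2 of 15 were higher (8.65% of all genes) and 4 of 15 were lower (8.06%). This count of 6 (16.7% of all genes pass in either direction) became 3 when WT replicate 22 or, in turn, MøFoxO1-KO replicate 29 was left out, with 2 higher and 1 lower in each case. When WT replicate 23 was left out it became 4 higher and 0 lower, with unadjusted edgeR p of 0.0553 for Ugt1a9, 0.0822 for Ugt1a1, 0.12 for Ugt3a1 and 0.0798 for Ugt3a2, while Ugt2a3 and Ugt2b37 joined the higher genes. Groups did not overlap in 2 genes that were higher (5.0% of all genes) and 3 that were lower (4.71%). The median log2 fold change of the 15 was -0.10, against -0.01 over all genes, moving to -0.0031 if WT replicate 23 was left out and to -0.19 if WT replicate 25 was. The family summed to 3491 ± 293 CPM (SD, n = 4) in WT and 3638 ± 280 in MøFoxO1-KO livers, which overlapped.

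**Figure D3:**
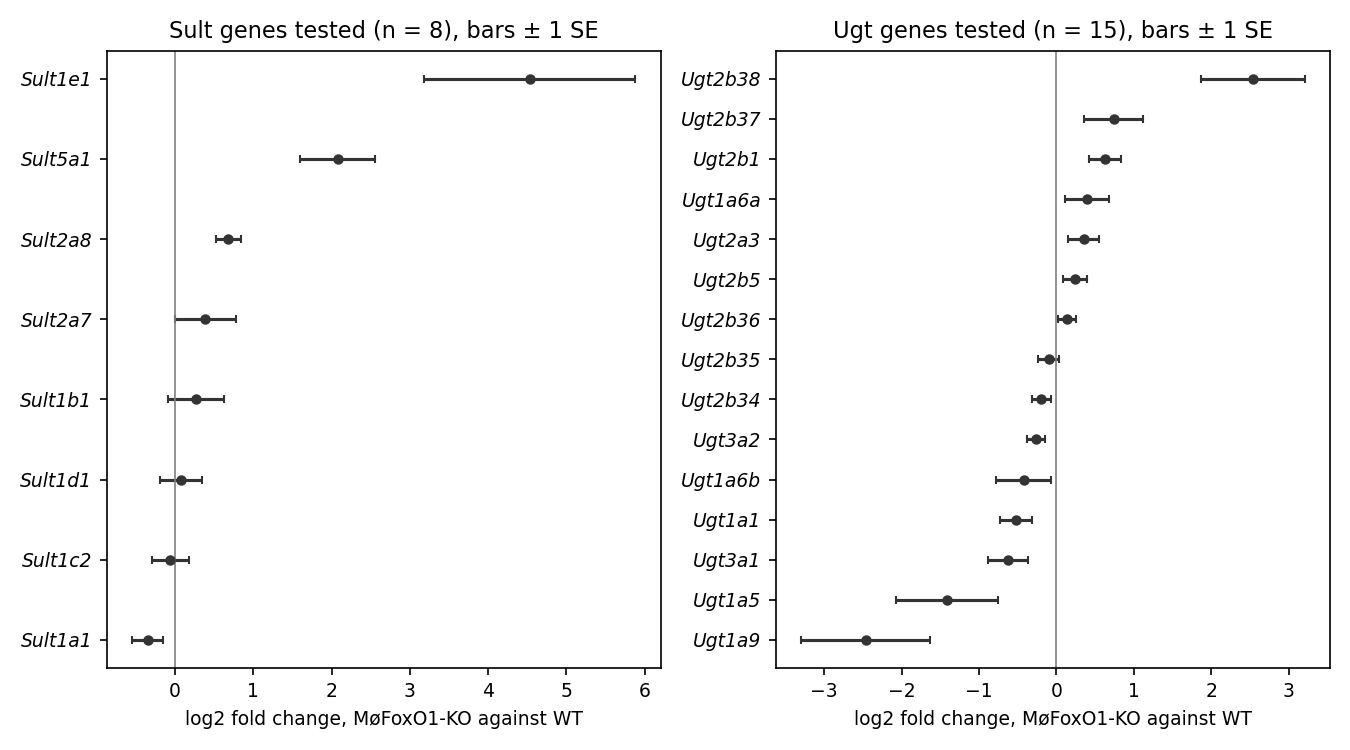
Log2 fold change of MøFoxO1-KO against WT livers (edgeR) for the 8 Sult genes and 15 Ugt genes that passed the filter, with bars of 1 standard error on each side. Sult1e1 at 4.53 and Ugt1a9 at -2.46 carry wide bars, whereas Sult2a8 at 0.68 and Ugt2b1 at 0.63 carry narrow ones.

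Ugt1a9, which glucuronidates phenols and drugs, had the most negative log2 fold change of the family (ENSMUSG00000090175, chromosome 1 from 88070800 to 88218997, plus strand). WT mice 22 to 25 had 1852, 5958, 1356 and 1138 normalized counts. MøFoxO1-KO mice 26 to 29 had 936, 469, 25.6 and 436. All MøFoxO1-KO mice were below all WT mice, with WT replicate 23 far above and MøFoxO1-KO replicate 28 far below the rest of their groups. EdgeR gave a log2 fold change of -2.46 ± 0.83 (SE), with an edgeR adjusted p of 0.201 and an exact permutation p of 0.0286. It was -1.63 without WT replicate 23. For each Ugt1a1 count there were 1.49, 4.89, 1.84 and 1.28 Ugt1a9 counts in WT mice and 1.13, 0.756, 0.0295 and 0.809 in MøFoxO1-KO mice. The ratio of Ugt1a9 to Ugt1a1 counts was thus not fixed, and the groups did not overlap in this ratio.

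Ugt1a1, the enzyme that conjugates bilirubin, differed less than Ugt1a9. WT mice had 1241, 1218, 738 and 892 normalized counts and MøFoxO1-KO mice had 829, 621, 867 and 538. The groups overlapped, and the log2 fold change was -0.52 ± 0.21 (SE; edgeR adjusted p = 0.252). Ugt1a5 had 57.1, 188, 15.7 and 31.9 counts in WT and 19.0 to 38.3 in MøFoxO1-KO mice, and its log2 fold change of -1.42 became -0.35 without WT replicate 23. Ugt1a6a had 110 to 225 counts in WT and 160.1 to 357 in MøFoxO1-KO mice (log2 fold change 0.40), and Ugt1a6b had 209 to 436 and 115 to 366 (-0.42). These close copies had values of opposite sign, neither at an unadjusted p under 0.05 (edgeR). How reads that match both were counted is not known, so reads between them may have been lost or split. All 9 Ugt1a genes together summed to 255 ± 156 CPM (SD, n = 4) in WT and 103 ± 29.9 in MøFoxO1-KO livers. The lowest WT mouse had 152 CPM and the highest MøFoxO1-KO mouse 146, so the separation of the locus was narrow.

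**Figure D4:**
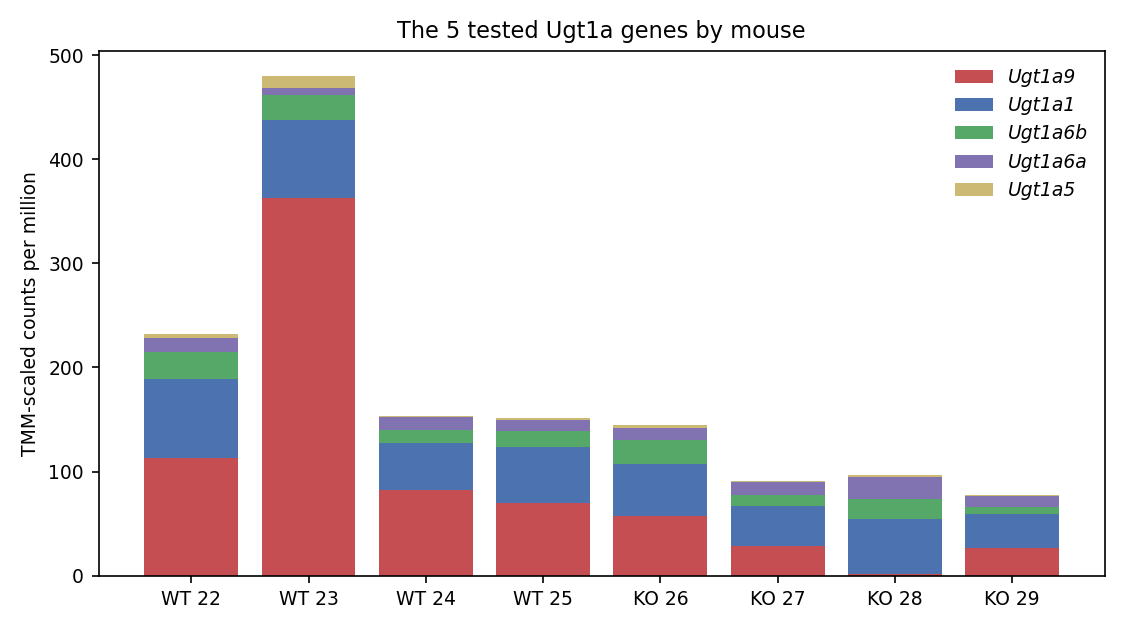
TMM-scaled CPM of the 5 Ugt1a genes that passed the filter, stacked by mouse. Ugt1a9 forms 75.3% of the counts credited to all 9 Ugt1a genes in WT replicate 23 and 1.61% in MøFoxO1-KO replicate 28. These shares are not adjusted for length. The Ugt1a1 segment varies much less.

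Ugt2b1 and Ugt2b38 belong to the group that conjugates steroids and xenobiotics. Ugt2b1 (ENSMUSG00000035836, chromosome 5 from 86916638 to 86926530, minus strand) had 6305, 6132, 4514 and 6085 normalized counts in WT and 12121, 9688, 7150 and 6640 in MøFoxO1-KO mice. The ranges were separate but close, at 6305 and 6640. The log2 fold change was 0.63 ± 0.21 (SE), with an edgeR adjusted p of 0.191 and an exact permutation p of 0.0286.

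Ugt2b38 (ENSMUSG00000061906, chromosome 5 from 87409942 to 87424203, minus strand) was a rare transcript, with 20.6, 9.83, 12 and 1.00 normalized counts in WT and 21.1, 121, 60.7 and 54.8 in MøFoxO1-KO mice. The groups nearly touched, at WT replicate 22 and MøFoxO1-KO replicate 26. Ugt2b38 had a log2 fold change of 2.54 ± 0.67 (SE), with an edgeR adjusted p of 0.131 and a DESeq2 adjusted p of 0.00392. Its coding sequence was 97.0% identical to that of Ugt2b5, which had about 9040 to 15456 normalized counts, so some Ugt2b38 reads could belong to Ugt2b5. Per 1000 Ugt2b5 counts there were 0.089 to 1.52 Ugt2b38 counts in WT and 1.75 to 7.81 in MøFoxO1-KO mice. This ratio cannot tell how many Ugt2b38 reads came from Ugt2b5.

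The other Ugt2 genes had log2 fold changes from -0.19 to 0.74. Ugt2b34 had 8339, 8639, 7084 and 7088 normalized counts in WT and 6604 to 7002 in MøFoxO1-KO mice, without overlap. Its log2 fold change was -0.19 ± 0.12 (SE), with an edgeR adjusted p of 0.444. Ugt2b5 had 9040 to 13580.2 counts in WT and 12017 to 15456 in MøFoxO1-KO mice (log2 fold change 0.24), and Ugt2b36 had 11351 to 12964 and 11541 to 14138 (0.14). Ugt2b35 had a log2 fold change of -0.10, Ugt2a3 of 0.35 and Ugt2b37 of 0.74, the last at 10.2 to 18.7 counts in WT and 15.7 to 35.8 in MøFoxO1-KO mice. The groups of these 5 genes overlapped, and the 7 Ugt2b genes summed to 2528 ± 158 CPM in WT and 2849 ± 198 in MøFoxO1-KO livers.

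The Ugt3a enzymes are known for using UDP-sugars other than UDP-glucuronic acid. Ugt3a2 (ENSMUSG00000049152, chromosome 15 from 9335550 to 9370955, plus strand) had 6561, 7096, 6332 and 6567 normalized counts in WT and 5641, 6127, 4901 and 5494 in MøFoxO1-KO mice. All MøFoxO1-KO values were below all WT values, by a small margin. The log2 fold change was -0.26 ± 0.12 (SE), with an edgeR adjusted p of 0.293. Ugt3a1, whose coding sequence is 93.2% identical to that of Ugt3a2, had 1044, 1458, 715 and 945 counts in WT and 1015, 637, 507 and 543 in MøFoxO1-KO mice. Its groups overlapped, and the log2 fold change was -0.62 ± 0.26 (SE; edgeR adjusted p = 0.267). Both genes together summed to 468 ± 38.5 CPM in WT and 379 ± 38.2 in MøFoxO1-KO livers (SD, n = 4), without overlap.

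Per summed exon length, the order in WT livers was Ugt2b5 (median 405 CPM per kilobase, range 296 to 446), Ugt2b36 (344, 336 to 384), Ugt2b1 (145, 107 to 149), Ugt3a2 (129, 124 to 139) and Ugt2a3 (121, 72.4 to 138). Ugt2b5 and Ugt2b36 overlapped, as did Ugt2b1 with Ugt3a2 and Ugt3a2 with Ugt2a3, whereas Ugt2b36 and Ugt2b1 were separate. Summed exons understate Ugt1a genes where reads fall mainly in the first exon. Over unshared exon bases Ugt1a1 had a median of 167 (range 117 to 196) and moved from place 9 to place 3, and Ugt1a9 had 111 (78.9 to 413) and moved from place 8 to place 7. The place of Ugt1a1 depended on the strand setting of the counting, which is not known. If its first-exon bases opposite Gm20528 were counted, its median was 70.4 (49.3 to 82.8) and it stayed in place 9, with Ugt1a9 in place 6.

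The remaining 7 Ugt genes did not pass the filter. Ugt2a1 and Ugt2a2, which share nearly all exon bases, had 0 counts in every mouse. Only 1.2% of the exon bases of Ugt2a1 and 5.5% of those of Ugt2a2 belonged to no other gene. Reads in their shared bases may not have been credited to either gene, so these 0 counts do not show that the genes were silent. Over all 8 mice Ugt1a10 had 67 counts, Ugt1a2 had 19, Ugt1a7c had 36, Ugt1a8 had 5 and Ugt8a, which makes galactosylceramide, had 24. Ugt1a10 was highest in WT replicate 23, with 25 counts, the same mouse in which its close copy Ugt1a9 was highest.

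Some of these genes are known to differ between the sexes in mouse liver, and all 8 mice were male. The 7 genes given here form a short list from general knowledge, chosen with earlier results of these data known, and leave out other members that may differ. Of those known as higher in females, Sult1a1 and Ugt1a1 were tested, with log2 fold changes of -0.35 and -0.52, and Sult2a1, Sult2a2 and Sult3a1 had too few counts. Of those known as higher in males, Ugt2b1 and Ugt2b38 had log2 fold changes of 0.63 and 2.54. None of these 4 passed the adjusted p in edgeR, and 48.3% of all genes had a positive log2 fold change.

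Genes listed for co-substrate supply, hydrolysis, transport of conjugates or regulation of the transferases were tested gene by gene and counted over lists. Sts, listed for hydrolysis, had no entry under that symbol. Of the 47 listed genes that were tested, 1 passed the adjusted p in edgeR, Abcc4, which was lower, against 0.294% of all genes. At an unadjusted p under 0.05, 5 were higher and 9 were lower, against 8.65 and 8.06% of all genes. The median log2 fold change of the 47 was -0.17, against -0.01 over all genes. Ugdh, which makes UDP-glucuronic acid, had 3381, 4816, 3569 and 3611 normalized counts in WT and 2700.3, 2041, 2658 and 2335 in MøFoxO1-KO mice. All MøFoxO1-KO mice were lower than all WT mice. Ugdh had a log2 fold change of -0.66 ± 0.15 (SE), with an edgeR adjusted p of 0.107 and a DESeq2 adjusted p of 0.0049. Ugp2, which makes UDP-glucose one step earlier, had 5510.0 to 7553 and 5811 to 6435 counts, with a log2 fold change of -0.03. Papss1 and Papss2, which make PAPS, had log2 fold changes of -0.20 and -0.25, and their groups overlapped.

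Among the transporters of conjugates, Abcc4, an export pump for bile acids and steroid sulfates, fell in MøFoxO1-KO livers. It had 261, 431, 143 and 122 normalized counts in WT and 19.2, 33.4, 48.4 and 33.6 in MøFoxO1-KO mice. The log2 fold change was -2.82 ± 0.44 (SE), with an adjusted p of 0.0338 in edgeR and 1.11e-08 in DESeq2. The edgeR call was lost when WT replicate 22 or 25 or MøFoxO1-KO replicate 26, 27 or 29 was left out. Abcc4 was also not called under limma-voom. Its log2 fold changes were -2.38 to -3.05 over the 8 edgeR fits without 1 mouse. Abcg2, an exporter of sulfate conjugates, had 1610 to 2268 counts in WT and 2512 to 3032 in MøFoxO1-KO mice (log2 fold change 0.52, adjusted p = 0.134 in edgeR and 0.0276 in DESeq2). The uptake carriers Slco1a1 and Slc22a7 had log2 fold changes of 2.0 ± 0.52 and 2.12 ± 0.53 (SE), with edgeR adjusted p of 0.128 and 0.121. Slco1a1 had 391 to 2799 counts in WT and 3173 to 7172 in MøFoxO1-KO mice, and Slc22a7 had 24.9 to 212 and 343 to 603, both without overlap. With all mice, DESeq2 gave adjusted p of 0.0367 for Slco1a1 and 0.036 for Slc22a7. EdgeR without the filter on low counts gave 0.0273 and 0.027. In edgeR with the filter, Slco1a1 passed the adjusted p (0.0432) without WT replicate 24, and Slc22a7 passed it (0.03) without WT replicate 23. The exporter Abcc3 and the carrier Slco1a4 had log2 fold changes of -0.52 and -0.66, with overlapping groups.

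**Figure D5:**
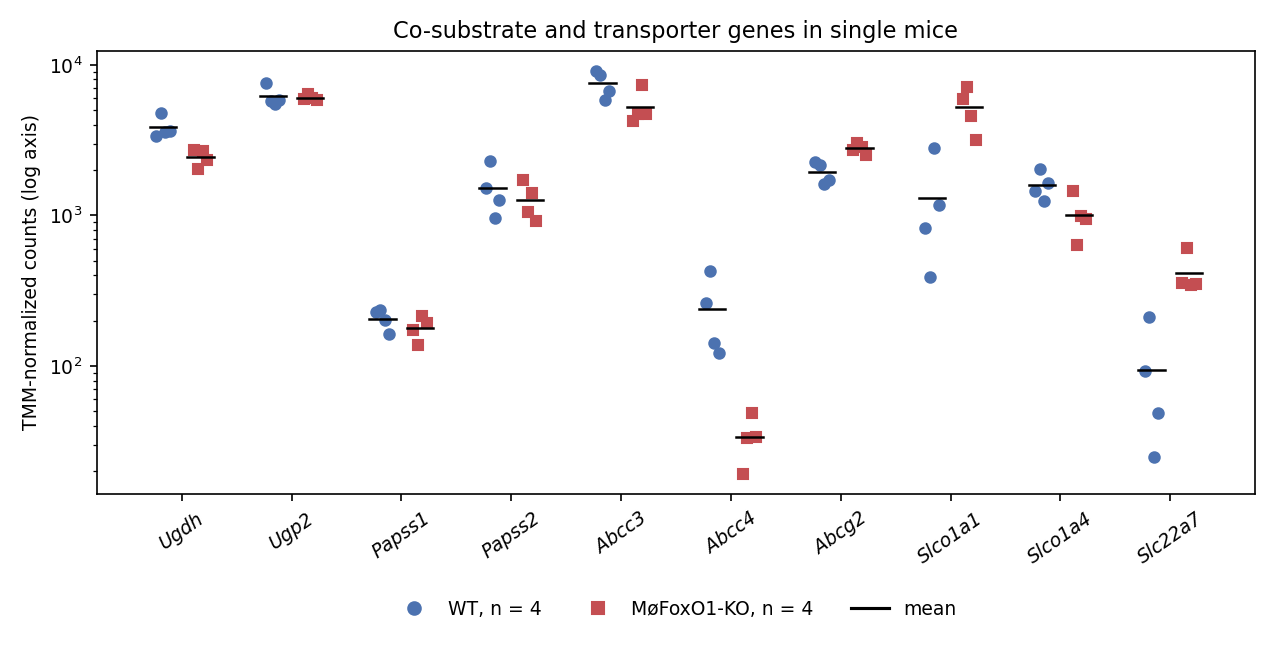
TMM-normalized counts (log axis) of 10 genes for co-substrates and transport in 4 WT mice (circles) and 4 MøFoxO1-KO mice (squares), with the group mean as a line. Abcc4 lies from 122 to 431 in WT and from 19.2 to 48.4 in MøFoxO1-KO mice, Ugdh is lower without overlap, and Ugp2, Papss1 and Papss2 overlap.

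At an unadjusted p under 0.05, 7 further genes of these lists differed. Nr1h3, which encodes LXRα, and Slc35b1, a nucleotide transporter of the endoplasmic reticulum, had log2 fold changes of 0.31 and 0.36. Ahr, the aryl hydrocarbon receptor, and Rora, a nuclear receptor, had log2 fold changes of -0.47 and -0.38. The sulfatase genes Arsa and Arsb had -0.40 and -0.68, and Impad1, a phosphatase of sulfation by-products, had -0.37. Whether Arsa and Arsb act on the products of Sult enzymes was not tested. Leaving out WT replicate 23 brought Arsb to -0.29, Rora to -0.21 and Impad1 to -0.22. None of these 7 passed the adjusted p in edgeR, where their values were 0.19 to 0.289, and Nr1h3 was the single gene of the 7 whose groups did not overlap.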

How the data were processed

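The authors sequenced polyadenylated RNA from 10 mg of liver per mouse (NEBNext Ultra libraries from 1 µg of RNA) and deposited 1 table of read counts per Ensembl gene with summed exon lengths. Per the labels' processing notes they used STAR and featureCounts on mm10; versions, the strand setting and the handling of reads with several matches are not given in the sources used here. The deposited counts were not normalized and all 8 count columns belong to a mouse. Depth was 15253218 to 18025481 counts, and no molecular identifiers are described, so limits from a count of 0 cover counting error only.

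Symbols came from GENCODE M21, and 6 family pseudogenes (0 counts) were left out. Genes were filtered with filterByExpr (minimum count 10, minimum total 15), which left 13278, scaled by TMM and compared between the groups by quasi-likelihood in edgeR 4.0.16 (R 4.3.3) with Benjamini-Hochberg adjustment and no covariates. For single values, two-sided exact permutation tests ran over 70 divisions of the mice (scipy 1.17.1). Alternatives were DESeq2 1.42.0, its size factors, upper-quartile scaling, no filter, 10 counts in every mouse, limma-voom (limma 3.58.1), the robust fit, other thresholds, other lengths and leaving out each mouse. Scripts were tested on simulated data. Coding sequences, each from the longest coding transcript (for Ugt1a genes, of those that begin at the gene's own first exon), were aligned with Biopython 1.88 and pandas 2.3.3 handled the tables. Protein sequences were not used here, and coding bases were compared in their place. One planned motif search is not reported here.

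Named genes were members at an adjusted or unadjusted p under 0.05, members without overlap, the 5 highest per length in each family, the Ugt1a locus, every member below the filter, and partner genes at an unadjusted p under 0.05 with Papss1, Papss2, Ugp2 and Ugdh. The other tested members were added to account for all. Members and lists were chosen with earlier results of these data known.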

Additional observations from a re-analysis of the deposited data

Results flagged for a closer look

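In 8 of 80 groups of 4 mice examined, 1 mouse stood apart from the other 3 by Dixon's ratio (the gap to the nearest mouse divided by the range of the group, above its 95% limit). The groups covered the tested members and named partner genes. About 5% of groups pass this limit if values are independent and normally distributed. These values were normalized counts from the same 8 mice, and some genes were chosen by p. The 8 of 80 can therefore not be set against 5%. Among the transferase genes, the ratio was 0.852 for Ugt1a9 in WT livers, where replicate 23 was highest, 0.877 for Ugt2b1 in WT livers, where replicate 24 was lowest, and 0.844 for Sult2a7 in MøFoxO1-KO livers, where replicate 29 was highest. Among the partner genes, WT replicate 23 was highest for Ugdh (ratio 0.84) and Arsb (0.837). In MøFoxO1-KO livers, replicate 28 was highest for Abcc3 (0.839), and replicate 27 was highest for Slc22a7 (0.943) and lowest for Rora (0.885).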

How the results depend on the processing

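No paired analysis was possible because the labels give no litter or other pairing of the mice. A litter effect could therefore not be modelled. Depth limits members with few or no counts, where a count of 0 allows up to 3 counts for counting error alone. This limit does not cover reads that were not credited in shared exons, as may hold for Ugt2a1 and Ugt2a2. The number of members past an adjusted p of 0.05 was 0 in both families and stayed 0 in every fit without 1 mouse (0 to 0), but DESeq2 gave 3 Sult genes and 1 Ugt gene, and edgeR without a filter gave 1 Sult gene (Sult5a1). At an unadjusted p under 0.05, the Sult count was 6 without a filter and 3 to 4 without 1 mouse, and the Ugt count was 3 to 6. The Sult count was 2 under limma-voom and 2 with at least 10 counts in every mouse, both without Sult1e1. With 10 counts in every mouse Ugt2b38 also dropped out, which left 1 higher and 4 lower Ugt genes. Without a filter the median log2 fold change turned to -0.58 for Sult genes (17 genes) and 0.042 for Ugt genes (20 genes), since genes with very few counts then entered. Without 1 mouse it was 0.094 to 0.55 for Sult and -0.19 to -0.0031 for Ugt genes. Partner genes past the adjusted p numbered 5 by DESeq2, 3 without a filter, 0 by limma-voom and 0 to 2 without 1 mouse. Leaving out 1 mouse turned the sign of 6 named genes, whose log2 fold changes ran from -0.00057 to 0.60 for Sult1b1, -0.22 to 0.12 for Sult1c2, -0.088 to 0.28 for Sult1d1, -0.091 to 0.55 for Sult2a7, -0.43 to 0.030 for Papss2 and -0.078 to 0.085 for Ugp2. The cause of these shifts was not tested. The other 19 tested members kept their sign in every fit. With unshared exon lengths the WT places became 3 for Ugt1a1, 4 for Ugt2b1, 5 for Ugt3a2, 6 for Ugt2a3, 7 for Ugt1a9, 8 for Ugt2b34, 9 for Ugt2b35, 15 for Ugt2b37 and 16 for Ugt2b38. With exon bases unshared on the same strand, a length chosen after seeing the data, Ugt1a1 kept place 9, and the places became 6 for Ugt1a9, 7 for Ugt2b34, 8 for Ugt2b35, 15 for Ugt2b37 and 16 for Ugt2b38.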
